A study of Homo sapiens with 12 samples.

Results

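MITF and 9 pigmentation genes (TYR, TYRP1, DCT, PMEL, MLANA, GPR143, SLC45A2, OCA2 and TRPM1) were followed in A375, a human melanoma cell line with a mutated BRAF kinase. The members were the rows of the count table carrying these 10 gene symbols, out of 44659 genes in all. RNA-seq had been performed in 2 experiments with 3 libraries per group, 12 in all. In the first, cells were exposed for 24 h to MAPKi, a mix of 500 nM of the BRAF inhibitor vemurafenib and 500 nM of the MEK inhibitor cobimetinib, and were compared with DMSO-treated cells (24 h). In the second, cells kept for 24 h in glutamine-free medium (Gln-depleted) were compared with cells in control medium containing 2 mM glutamine (CTRL). All 4 groups were grown from the same line and carried no engineered allele, so every result concerns 1 cell line. The labels put the MAPKi experiment in sequencing batch 2 and the Gln experiment in sequencing batch 1, in which replicate 1 of both groups belonged to experimental batch 1 and replicates 2 and 3 to experimental batch 2. They do not state whether replicates were separate cultures, and p-values then measure only the spread between these libraries, which may be technical.

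MITF is the basic helix-loop-helix transcription factor that directs the melanocyte lineage. It binds E-box motifs, including the M-box, upstream of genes that make melanin and build the melanosome, the organelle in which the pigment is deposited. TYR, TYRP1 and DCT encode the enzymes of melanin synthesis, PMEL encodes the protein of the fibrils on which melanin is laid down, and MLANA encodes an antigen shared by melanocytes and melanomas. GPR143, SLC45A2 and OCA2 encode a receptor and transporters of the melanosome whose loss causes albinism, and TRPM1 encodes a cation channel whose intron holds the microRNA gene MIR211. Melanomas are known to range from a pigmented state with high MITF activity to a dedifferentiated state with little of it.

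The sequences upstream of these genes are shown first, because 6 of the members hold the core of the M-box there. RefSeq promoter windows (GRCh38.p14) matched 8 of the 10 members, in 12 windows. PMEL and SLC45A2 were not in the table. Each window runs from 250 bases before a gene start to 50 bases after it, and only the bases before the start are printed. Windows were searched on both strands for CATGTG, the core of the M-box, for TCATGTG, which contains CATGTG, for the palindromic E-box CACGTG, and for TGACG, the core of the cyclic AMP response element. CATGTG occurred in 7 of the 12 windows, belonging to 6 members, against 11.1% of the 35116 windows of all genes. TCATGTG occurred in 4 of the 12 windows, those of TYR, TYRP1, DCT and GPR143, against 2.92% of all windows. CACGTG occurred in 0 of the 12 windows, against 7.26% of all windows, and TGACG in 3 of the 12, those of MITF, TYRP1 and MLANA, against 24.6%. A match is a description of the letters and not of binding.

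The 6 stretches below belong to MITF and to 5 of the 6 members with CATGTG. The windows of MLANA and GPR143 are not printed. MLANA, which rose with MAPKi, held 0 CATGTG matches, and GPR143, which was close to absent, held 2. Capitals mark TGACG or its reverse complement CGTCA in the MITF sequence, where 2 of the matches overlap, and CATGTG or its reverse complement CACATG in the others.
MITF, chr3:69936342-69936591, plus strand: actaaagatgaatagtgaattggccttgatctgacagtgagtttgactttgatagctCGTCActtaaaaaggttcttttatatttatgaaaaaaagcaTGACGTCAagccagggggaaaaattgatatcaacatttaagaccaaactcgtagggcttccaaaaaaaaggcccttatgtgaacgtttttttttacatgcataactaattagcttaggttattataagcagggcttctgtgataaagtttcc
TYR, chr11:89177625-89177874, plus strand: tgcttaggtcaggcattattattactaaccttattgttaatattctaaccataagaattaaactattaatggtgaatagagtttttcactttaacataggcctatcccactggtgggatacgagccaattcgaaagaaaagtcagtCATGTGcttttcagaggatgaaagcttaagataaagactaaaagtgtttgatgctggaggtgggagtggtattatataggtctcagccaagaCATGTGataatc
TYRP1, chr9:12693135-12693384, plus strand: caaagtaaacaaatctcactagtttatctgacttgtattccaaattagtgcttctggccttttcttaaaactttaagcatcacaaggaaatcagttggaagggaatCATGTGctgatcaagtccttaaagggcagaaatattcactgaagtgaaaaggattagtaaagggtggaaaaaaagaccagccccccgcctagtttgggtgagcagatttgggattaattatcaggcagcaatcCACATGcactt
DCT, chr13:94479683-94479932, minus strand: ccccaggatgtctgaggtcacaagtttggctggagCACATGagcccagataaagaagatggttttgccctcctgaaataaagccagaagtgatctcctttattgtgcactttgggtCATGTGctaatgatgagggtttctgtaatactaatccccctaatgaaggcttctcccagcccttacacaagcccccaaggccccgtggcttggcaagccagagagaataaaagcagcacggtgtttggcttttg
OCA2, chr15:28099316-28099565, minus strand: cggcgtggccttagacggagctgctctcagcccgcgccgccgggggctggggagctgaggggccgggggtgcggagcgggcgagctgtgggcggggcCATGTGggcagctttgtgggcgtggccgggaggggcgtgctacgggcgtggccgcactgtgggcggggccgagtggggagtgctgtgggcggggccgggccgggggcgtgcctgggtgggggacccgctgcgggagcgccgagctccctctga
TRPM1, chr15:31101726-31101975, minus strand: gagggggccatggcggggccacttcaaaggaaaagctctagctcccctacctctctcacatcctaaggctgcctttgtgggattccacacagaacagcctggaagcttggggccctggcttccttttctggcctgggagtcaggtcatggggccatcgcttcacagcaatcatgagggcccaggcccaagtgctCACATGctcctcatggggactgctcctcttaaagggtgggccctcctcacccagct
The MITF stretch lies before the most downstream of its 3 gene starts, the only one of the 3 with a match, and its matches began 193, 152 and 149 bases before the start. In TYR the 2 CATGTG matches began 104 and 12 bases before the start, in TYRP1 144 and 11 bases, and in DCT 215 and 134 bases, in the window of the more downstream of its 2 starts. OCA2 held 1 match, 153 bases before the start, and TRPM1 held 1 in each of its 2 windows, 56 bases before the start in the one printed. In the printed stretches the distance of CATGTG from the start thus varied from 11 to 215 bases.

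The libraries held 31056296 to 40071368 counted reads (median 35748567). As a check on the labelled cell type, all 7 melanoma lineage markers were detected in every library. SOX10 had 10043 to 33938 reads, whereas MLANA had only 2 to 203. KRT5 and CD3E, markers of keratinocytes and T cells, had 0 reads in all 12 libraries. The summed level of the 4 keratinocyte and epithelial markers was 0.0994 to 0.695 CPM (counts scaled to library size), with KRT5 at 0. The summed level of the 5 leukocyte and endothelial markers was 2.46 to 9.13 CPM, and that of the 4 fibroblast markers 13.5 to 28.1 CPM. Single markers of these lists moved with a treatment. The endothelial marker VWF was upregulated with MAPKi (log2 fold change 0.87, edgeR adjusted p = 7.83e-05), when the summed level of its list went from 4.71 to 5.35 CPM with DMSO to 8.14 to 9.13 CPM. With Gln depletion LUM was downregulated (-2.21) and PDGFRA upregulated (1.33). Their part in the results below was not tested. In bulk RNA, fewer expressing cells and less RNA per cell cannot be told apart.

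MITF and the pigmentation genes that could be tested all rose with MAPKi. Of the 10 members, 7 had a mean normalised count of at least 10 and were tested, and 7 of 7 were upregulated. Over all 15975 genes tested, 16.1% were upregulated and 17.6% downregulated. Up- or downregulated means a change significantly larger than 1.5-fold in edgeR (adjusted p of at most 0.05), and the adjusted p given for a single gene is that of edgeR's quasi-likelihood test against no change. Normalised counts are reads scaled to a common library size. The median log2 fold change of the 7 members was 2.67, against -0.00 over all genes tested. TRPM1 passed the limit on counts through the MAPKi group alone. The count of 7 of 7 and the median are thus a description of the members that could be tested and not of all 10.

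MITF itself changed least of the 7. Its normalised count was 13858, 13608 and 13703 in the DMSO libraries and 24325, 22616 and 23949 in the MAPKi libraries. The groups were far apart relative to their spread, and MITF rose 1.72-fold, by 0.78 on the log2 scale (SE 0.044, adjusted p = 6.9e-07). The rise did not pass the 1.5-fold test in a fit of all 12 libraries, where its error was larger (log2 fold change 0.80, SE 0.21, adjusted p = 0.192). The counts do not separate the isoforms that start from its different promoters.

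The 3 enzymes of melanin synthesis rose by very different amounts. DCT, which converts dopachrome, had normalised counts of 8412, 5682 and 6969 with DMSO and of 324892, 241759 and 254687 with MAPKi. Its mean rose from 7021 ± 1366 to 273779 ± 44735 (SD, n = 3), which is 39.0-fold (log2 fold change 5.29, SE 0.18, edgeR adjusted p = 4.69e-08). DCT took 0.0164% to 0.0243% of all counted reads with DMSO and 0.705% to 0.898% with MAPKi. Ranked by count, it stood between place 746 and 1405 among all genes with DMSO, and at place 2 or 3 with MAPKi.

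TYRP1, which acts after DCT in eumelanin synthesis, had normalised counts of 51.3, 58.7 and 44.4 with DMSO and of 397.7, 310.4 and 274.6 with MAPKi. This was a 6.37-fold rise from a low level (log2 fold change 2.67, SE 0.18, edgeR adjusted p = 2.01e-06). LURAP1L-AS1, a long noncoding RNA gene on the opposite strand, shares 102 exon bases with TYRP1, and whether reads were counted by strand is not stated. Its row held 2 to 6 reads per library with DMSO and 2 to 7 with MAPKi.

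TYR, the rate-limiting enzyme, had normalised counts of 31.0, 29.8 and 35.7 with DMSO and of 147.4, 79.5 and 70.2 with MAPKi. All 3 MAPKi libraries lay above all DMSO libraries, but MAPKi replicate 1 held about as much as the other two together. TYR rose 3.08-fold (log2 fold change 1.62, SE 0.30, edgeR adjusted p = 0.00117), and by 1.21 on the log2 scale without MAPKi replicate 1.

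Structural and antigen genes of the melanosome rose with the enzymes. PMEL had normalised counts of 1099, 870.1 and 1051 with DMSO and of 9750, 6339 and 6728 with MAPKi, a 7.55-fold rise (log2 fold change 2.92, SE 0.17, edgeR adjusted p = 1.07e-06). In one of the annotations used, PMEL shares 89 exon bases with CDK2 on the opposite strand. CDK2 was downregulated in the same libraries (log2 fold change -0.94), and its part in the PMEL count was not tested. MLANA had normalised counts of 23.5, 23.9 and 35.7 with DMSO and of 184.7, 149.1 and 180.4 with MAPKi, a 6.19-fold rise (log2 fold change 2.62, SE 0.20, edgeR adjusted p = 4.87e-06). For both genes the lowest MAPKi library was several times the highest DMSO library.

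TRPM1 went from almost no reads to a low count. It had 1, 0 and 0 reads in the DMSO libraries and 44, 33 and 36 in the MAPKi libraries. Relative to library size the MAPKi group had 111 times the reads of the DMSO group, with a 95% exact interval of 19.6 to 4439 that covers counting error only. The edgeR adjusted p was 1.87e-05. TRPM1 passed the limit on counts through the MAPKi group alone. Its call and adjusted p thus depend on the choice of genes tested, and its rise is given as a description. The fitted log2 fold change depends on how the zeros are handled and is not given. MIR211, the microRNA gene inside TRPM1, was listed at 0 reads in all 12 libraries. Of 2 further TRPM1 rows in the table, 1 held 6 reads, all with MAPKi, and these were not added.

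The 3 remaining members were close to absent. GPR143 had 3, 7 and 2 reads with DMSO and 3, 1 and 0 with MAPKi. OCA2 had 3, 8 and 5 reads with DMSO and 9, 4 and 10 with MAPKi, and SLC45A2 had 0, 1 and 0 against 0, 0 and 4. In each of the 3 genes the groups overlapped and the exact interval of the ratio of summed reads included 1. For OCA2 the MAPKi group had 1.42 times the DMSO group (95% exact interval 0.717 to 2.87). At this depth no change could be detected in these genes, which does not show that there was none.

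**Figure D1:**
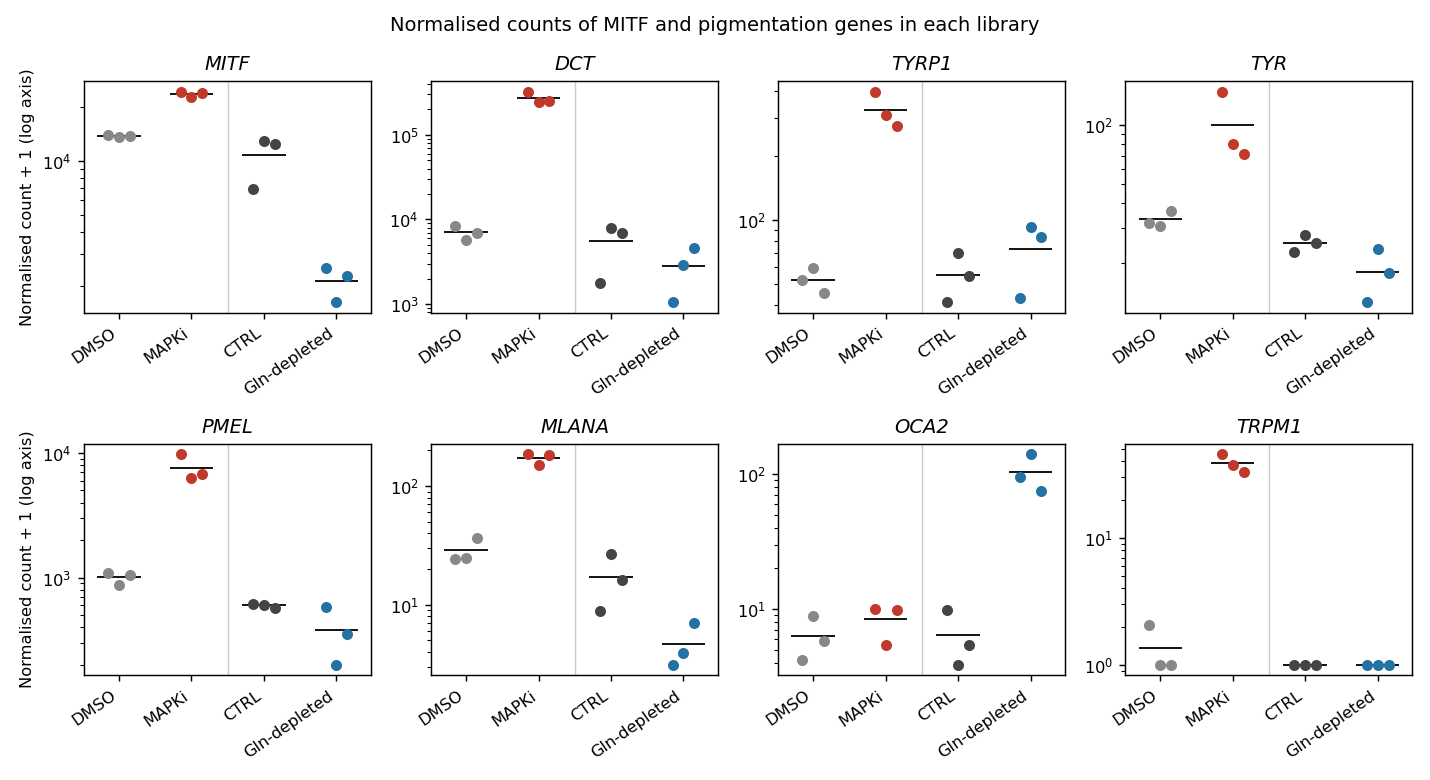
Normalised count plus 1 on a log axis for 8 members in each of the 12 libraries, with 1 point per library in the order of the replicates and a bar at the mean of the 3 libraries of a group (vertical axes differ between panels). DCT lay between 5682 and 8412 with DMSO and between 241759 and 324892 with MAPKi, while OCA2 rose above 10 only in the Gln-depleted libraries, at 73.96 to 138.8.

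Gln depletion moved MITF in the other direction and left most of its pigmentation genes without a significant change. Of the 10 members 6 were tested, of which MITF was downregulated, OCA2 was upregulated, and TYR, TYRP1, DCT and PMEL were not called. Over all 15900 genes tested, 3.21% were upregulated and 1.65% downregulated. The median log2 fold change of the 6 members was -0.59, against 0.02 over all genes. Libraries with the same replicate number deviated together in this experiment, which the main fit, having no covariate, did not use. Values with the replicate number as a block are given where they change a result.

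MITF had normalised counts of 6939, 12834 and 12347 in the CTRL libraries and of 2517, 1617 and 2265 in the Gln-depleted libraries. CTRL replicate 1 was the lowest of its group but still well above every Gln-depleted library. MITF fell by 2.33 on the log2 scale (SE 0.30, edgeR adjusted p = 0.00377), its mean being 5.02 times higher in CTRL. Within pairs of the same number, CTRL was 2.76 times the Gln-depleted library in experimental batch 1 (replicate 1), and 7.94 and 5.45 times in experimental batch 2. In experimental batch 2 alone the log2 fold change was -2.70 (adjusted p = 0.00326), while batch 1 held a single pair.

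OCA2, which was almost without reads in the other 3 groups, was the member that rose. It encodes the melanosomal transporter altered in oculocutaneous albinism type 2. It had 9, 3 and 5 reads in the CTRL libraries and 90, 142 and 62 in the Gln-depleted libraries, so that the groups were far apart. Its normalised count rose from 5.39 ± 3.09 to 102 ± 33.1 (SD, n = 3), which is 19.0-fold (log2 fold change 4.23, SE 0.51, edgeR adjusted p = 0.00318). The rise was seen in 3 of 3 pairs, and in experimental batch 2 alone the log2 fold change was 4.81 (adjusted p = 0.00471). OCA2 passed the limit on counts through the Gln-depleted group alone. Its call and adjusted p-values thus depend on the choice of genes tested, and its rise is given as a description. The 2 further OCA2 rows of the table held 0 reads throughout.

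DCT was lower without glutamine in every pair, but its level differed more between replicates of a group. Its normalised counts were 1777, 7934 and 6939 in the CTRL libraries and 1048, 2872 and 4557 in the Gln-depleted libraries. Replicate 1 was the lowest of both groups, and the groups overlapped. The log2 fold change was -0.97 (SE 0.63, edgeR adjusted p = 0.311). With the replicate block it was -0.95 (SE 0.18) and differed from no change (adjusted p = 0.00599), although it still did not exceed 1.5-fold (adjusted p = 0.0716). The CTRL library held 1.70, 2.76 and 1.52 times the Gln-depleted library of the same number.

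PMEL had normalised counts of 619.0, 604.7 and 575.6 in CTRL and of 583.0, 199.4 and 354.3 in Gln-depleted cells. Replicate 1 had nearly equal values in both groups, and the log2 fold change of -0.66 (SE 0.36) had an adjusted p of 0.235 in edgeR, 0.0579 with the replicate block and 0.0416 in experimental batch 2 alone. CDK2, which overlaps PMEL as described above, was downregulated in the same libraries (log2 fold change -1.62, from a mean normalised count of 10208 to 3325), and its part in the PMEL count was not tested. TYR (log2 fold change -0.51, 95% interval -1.41 to 0.40) and TYRP1 (0.41, -0.51 to 1.33) did not differ from no change (edgeR adjusted p = 0.4 and 0.503). These intervals leave room for changes well above 1.5-fold. TYRP1 was the only tested member besides OCA2 whose estimate was positive, and LURAP1L-AS1 on its opposite strand had 4 to 14 reads per library in CTRL and 21 to 97 in Gln-depleted cells. Its part in the TYRP1 count was not tested.

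MLANA had 8, 27 and 17 reads in CTRL and 2, 3 and 5 in Gln-depleted cells. The groups did not overlap, but its mean normalised count of 9.97 missed the limit of 10, and it was not tested in this comparison. Where a laxer limit on counts let it in, its log2 fold change was -2.14 (edgeR adjusted p = 0.0666). In a fit of all 12 libraries MLANA was downregulated (log2 fold change -2.18, adjusted p = 0.00494). GPR143 had 2, 3 and 1 reads against 1, 4 and 3, SLC45A2 had 0, 4 and 4 against 1, 1 and 1, and TRPM1 had 0 reads in all 6 libraries.

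**Figure D2:**
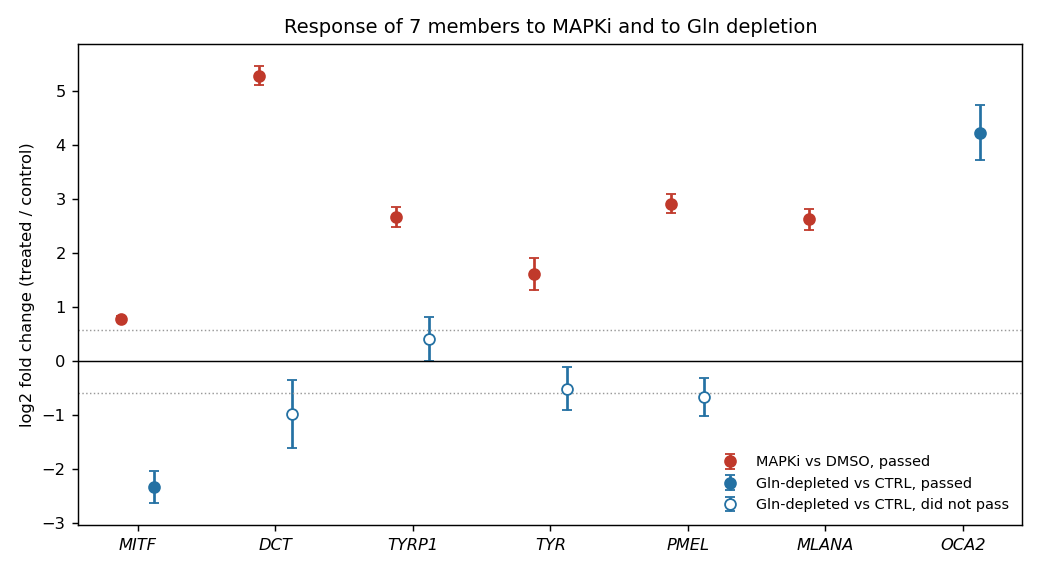
Log2 fold change of 7 members in each comparison, with the standard error of the edgeR fit (3 libraries per group). Filled points passed the test against a 1.5-fold change, open points did not, dotted lines mark a 1.5-fold change, and a missing point means that the gene was not tested. TRPM1 is left out because its DMSO group held 1 read. MITF was at 0.78 with MAPKi and at -2.33 with Gln depletion.

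The 2 treatments were then set against each other, each relative to its own control, in a contrast over the 12 libraries. Of the 7 members that could be tested all 7 differed, against 36.1% of the 16072 genes tested. OCA2 passed the limit on counts only through the Gln-depleted group, so that its difference follows from the choice of genes tested and is given as a description. For 6 of them the effect of MAPKi was the higher one. The difference of log2 fold changes was largest for DCT, at 6.30 (SE 0.80, edgeR adjusted p = 0.00011), followed by MLANA at 4.81 (SE 0.62, adjusted p = 0.000121). It was 3.63 for PMEL, 3.16 for MITF, 2.31 for TYRP1 and 2.17 for TYR, with adjusted p-values between 1.96e-05 and 0.00385. For OCA2 the effect of MAPKi was lower than that of Gln depletion, by -3.69 (SE 0.69). With any of the 12 libraries left out, the same 7 members still differed. TRPM1 entered some of these fits and was not called.

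The order of the members by level per exon length changed with the treatment. In DMSO-treated cells MITF was first, at 52.1 ± 0.858 RPKM (reads scaled to library size and to kilobases of exon; SD, n = 3). DCT followed at 26.2 ± 5.25 and PMEL at 7.73 ± 0.985, with no overlap between these 3. TYRP1 (0.387), TYR (0.350) and MLANA (0.260) lay below 0.5 RPKM, TYR overlapping with each of its neighbours, and the other 4 members averaged below 0.05 RPKM. With MAPKi DCT came first at 1031 ± 161 RPKM, followed by MITF at 90.4 ± 2.71 and PMEL at 58.8 ± 14.0, again without overlap. TYRP1 (2.49), MLANA (1.62) and TYR (1.08) came next, of which MLANA and TYR overlapped, and TRPM1 stood at 0.146 RPKM.

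In CTRL medium MITF (40.6 ± 12.1 RPKM) and DCT (20.7 ± 12.3 RPKM) overlapped, and PMEL followed at 4.61. In Gln-depleted cells DCT (10.3 ± 6.39 RPKM) and MITF (7.91 ± 1.76 RPKM) overlapped in their range, so that no order between them can be given. OCA2, at 0.864 ± 0.276 RPKM, took place 4 there, behind PMEL at 2.84 and overlapping with TYRP1 at 0.530. The values depend on the length used: with the longest transcript in place of merged exons MITF in DMSO-treated cells was at 80.5 RPKM. Levels of the 2 experiments come from different sequencing batches and were compared only within an experiment.

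**Figure D3:**
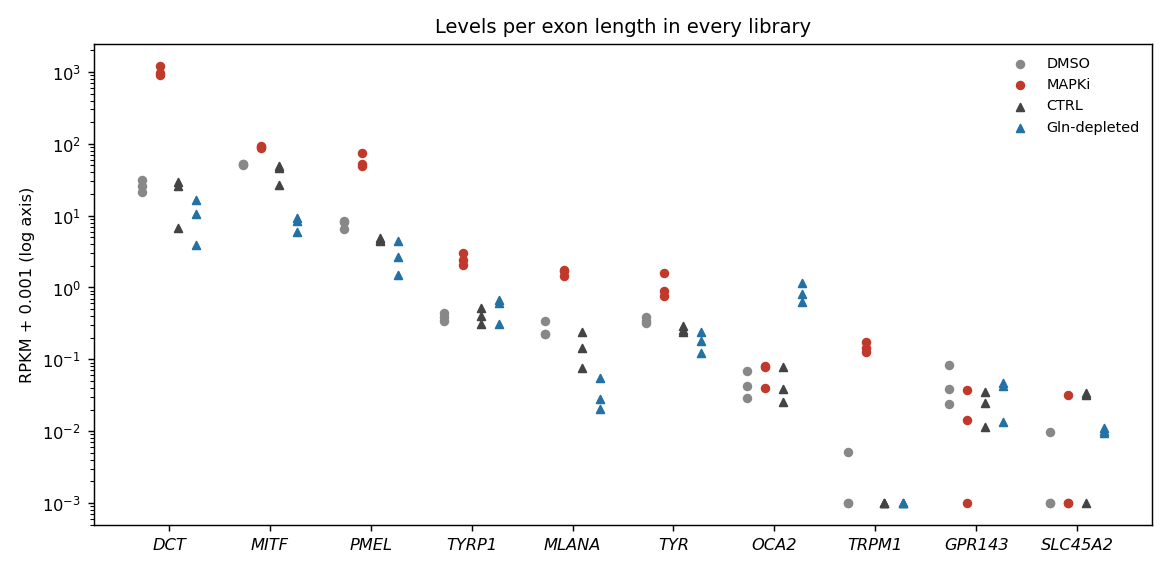
Level of the 10 members in every library as RPKM plus 0.001 on a log axis, with circles for the MAPKi experiment and triangles for the Gln experiment. DCT lay between 919 and 1215 RPKM in the MAPKi libraries, above every other member, and OCA2 between 0.625 and 1.17 RPKM in the Gln-depleted libraries.

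The genes with a pattern like that of MITF over the 12 libraries were then ranked. Likeness was measured by Pearson's r of log2(CPM + 0.5), centred within each experiment, among 11716 genes with a mean normalised count of at least 100. Of the 9 pigmentation genes only PMEL, DCT and TYRP1 passed this limit and could be ranked. The 12 libraries share their batches and treatments, and r is given as a description. LXN, a carboxypeptidase inhibitor, ranked first (r = 0.992), with log2 fold changes of 1.10 with MAPKi and -3.19 with Gln depletion. PCDH7, a protocadherin, followed (r = 0.988), with 1.34 and -3.63. SLC16A10, an aromatic amino acid transporter, took place 4 (r = 0.982), with 0.90 and -2.34, and these 3 genes were called in both comparisons. MRTFB (r = 0.985) and ANKRD44 (r = 0.978) completed the first 5, with small changes with MAPKi (0.15 for each). By comparison PMEL ranked 1799 (r = 0.555), DCT 2278 (r = 0.484) and TYRP1 4338 (r = 0.198).

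Of the relatives of MITF in the MiT family, TFEB was upregulated with MAPKi (log2 fold change 1.54, SE 0.087, edgeR adjusted p = 7.61e-07) and was not called with Gln depletion (-0.82). The rows named TFE3 and TFEC had too few reads to be tested. Whether other rows hold reads of these genes was not checked. Over all genes tested, 16.1% were upregulated and 17.6% downregulated with MAPKi. With Gln depletion the shares were 3.21% and 1.65%, for comparison with this list and those below. Among 12 factors and receptors known to act on MITF, 11 were tested. With MAPKi 3 of these were upregulated, namely the transcription factors TFAP2A (log2 fold change 1.80) and ZEB2 (1.48) and the melanocortin receptor MC1R (0.81). Another 4 were downregulated, the transcription factors POU3F2 (-4.29), SOX9 (-3.37), LEF1 (-2.31) and ZEB1 (-2.12). SOX10 and PAX3, activators of MITF in melanocytes, did not exceed 1.5-fold (0.54 and 0.32). Tested against no change, both were higher with MAPKi (edgeR adjusted p = 6.42e-06 and 0.0011). With Gln depletion 0 of the 11 were called in either direction, by edgeR or by DESeq2, while at an unadjusted p under 0.05 of the 1.5-fold test 0 were higher and 2 lower. With the replicate block MC1R was downregulated. No share over all genes was determined for counts at an unadjusted p. In the contrast of the 2 treatments 9 of the 11 differed, against 36.1% of all genes tested. The effect of MAPKi was the higher one for 5 and the lower one for 4.

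Among 28 genes for melanosome biogenesis, ions and transport, 27 were tested. With MAPKi edgeR called 10 of these upregulated and 0 downregulated (DESeq2 9 and 0, and 0 lower at an unadjusted p under 0.05 of the 1.5-fold test). Tested against no change, 16 were higher and 8 lower. Over all 15975 genes tested, 16.1% were upregulated and 17.6% downregulated, while 5723 were higher and 5742 lower in the test against no change. The median log2 fold change was 0.46, against -0.00 over all genes. The largest changes were those of GPNMB, a melanosomal glycoprotein (2.85), MLPH, which links melanosomes to myosin (2.43), HPS5, a subunit of a complex for lysosome-related organelles (1.99), and LYST, a regulator of lysosome-related organelles (1.74). In HPS5 MAPKi replicate 2 stood apart, with normalised counts of 160.5, 603.2 and 166.2 with MAPKi and of 110.0, 60.7 and 63.7 with DMSO. Without MAPKi replicate 2, DMSO replicate 2 or DMSO replicate 3, HPS5 was not called and 9 genes were upregulated. With Gln depletion 2 of the 27 were downregulated, MREG (-1.79) and SLC24A5 (-1.67), genes of melanosome transfer and of melanosomal ion exchange. Neither was called without CTRL replicate 2, CTRL replicate 3 or Gln-depleted replicate 2, which left 0 of the 27 called. SLC24A5 was also lost without Gln-depleted replicate 1, and MREG without Gln-depleted replicate 3. With the replicate block 5 were downregulated, with HPS4, LYST and MLPH added, and BLOC1S2 was upregulated. In the contrast of the 2 treatments 13 of the 27 differed, against 36.1% of all genes tested. The effect of MAPKi was the higher one for 13 and the lower one for 0.

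The list of 16 MITF targets outside pigmentation was tested in full. With MAPKi 10 were upregulated and 3 downregulated, against 16.1% and 17.6% of all genes tested. The median log2 fold change was 1.14. IRF4, a transcription factor that activates TYR together with MITF, rose most (4.56, SE 0.21, edgeR adjusted p = 2.31e-07), followed by the protease genes CTSK (2.32) and CAPN3 (2.22). BCL2, an inhibitor of apoptosis, fell by 1.77 on the log2 scale. With Gln depletion 3 of the 16 were downregulated, namely BCL2A1 (-2.21) and BIRC7 (-1.81), both inhibitors of apoptosis, and the cell cycle kinase gene CDK2 (-1.62). CDK2 was called whichever library was left out, and it was the only one of the 3 without CTRL replicate 3 or Gln-depleted replicate 2. BCL2A1 was also lost without CTRL replicate 2 or Gln-depleted replicate 3. The median was -0.96, and with the replicate block 7 were downregulated (ACP5, BCL2A1, BIRC7, CAPN3, CDK2, GPM6B and TBX2) and BEST1 upregulated. In the contrast 13 of the 16 differed, against 36.1% of all genes tested, with BCL2A1 at 3.85 and IRF4 at 5.89. The effect of MAPKi was the higher one for 12 and the lower one for 1.

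Markers of the dedifferentiated melanoma state moved unevenly. Over all genes tested, 17.6% were downregulated and 16.1% upregulated with MAPKi. With MAPKi 6 of 10 were downregulated, with FOSL1, an AP-1 subunit (-2.46), and NT5E, an ectonucleotidase (-1.84), as the largest falls. Another 3 were upregulated, NGFR, the neural crest marker CD271 (5.04), PDGFRB, a growth factor receptor (1.86), and the adhesion receptor gene CD44 (1.24). With Gln depletion FOSL1 was upregulated (2.24), and with the replicate block AXL, NGFR and NT5E were as well. FOSL1 was not called without CTRL replicate 1, CTRL replicate 2, Gln-depleted replicate 2 or Gln-depleted replicate 3. In the contrast 9 of the 10 differed, against 36.1% of all genes tested, FOSL1 by -4.65. The effect of MAPKi was the higher one for 3 and the lower one for 6. Among the lineage markers, CSPG4 (-3.43) and S100B (-2.13) were downregulated with MAPKi in the libraries in which PMEL and MLANA rose.

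**Figure D4:**
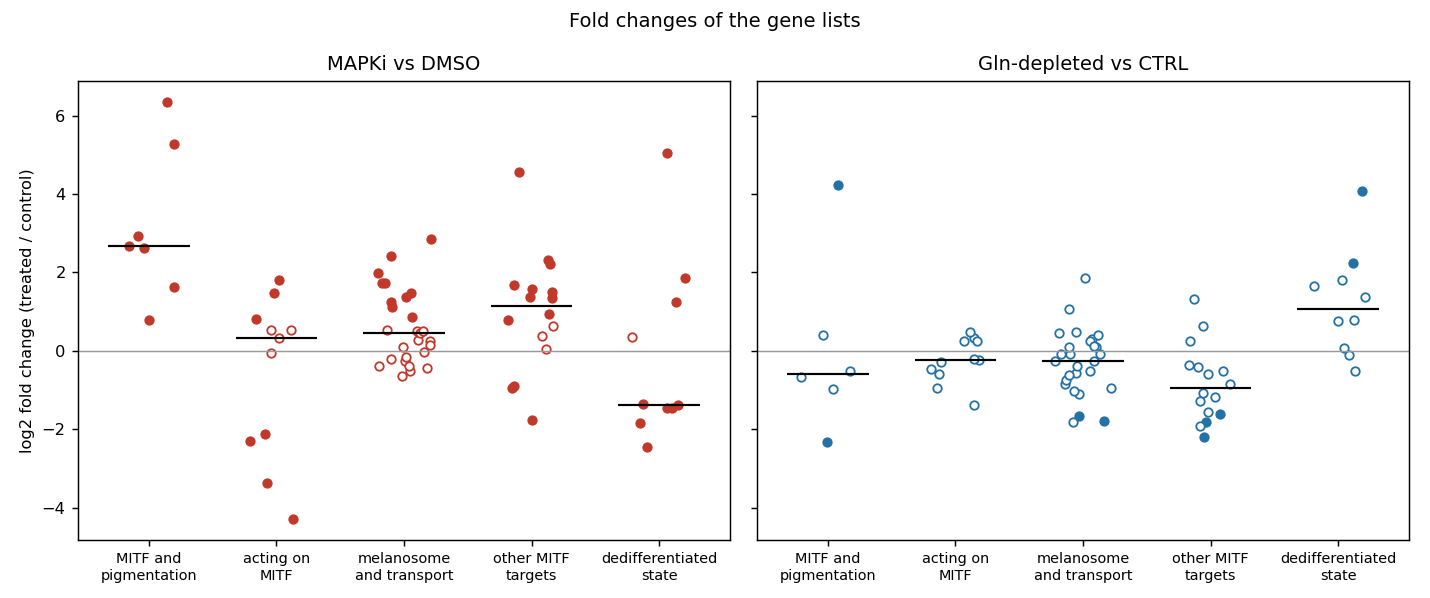
Log2 fold change of every tested gene of 5 lists in each comparison, with filled points for genes that passed the test against a 1.5-fold change and a bar at the median of the list. The medians of the pigmentation members were 2.67 and -0.59, those of the melanosome and transport genes 0.46 and -0.26, and the highest point of the first list with MAPKi is TRPM1, whose fitted value rests on 1 read in the DMSO libraries.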

How the data were processed

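The authors trimmed the reads with fastp (0.20.1), aligned them with HISAT2 (2.2.1) to GRCh38.p13 and counted those on exons with HTSeq (0.13.5), per the labels and the study's methods. The deposited values are raw counts of reads per gene without normalization, named by symbol. Strand settings are not given in the sources used here. The labels describe cytoplasmic RNA and the study's RNA-seq methods total RNA, after depletion of ribosomal RNA. Counts summed to 31056296 to 40071368 per library, and no replicates agreed within sampling noise.

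Each experiment was fitted alone with edgeR 4.0.16 in R 4.3.3 (quasi-likelihood, TMM factors, no covariate), leaving out genes whose mean normalized count in its 6 libraries was under 10. Calls of up- and downregulated genes were made against a 1.5-fold change, with p adjusted by Benjamini-Hochberg over all genes tested and a threshold of 0.05. The difference of the treatment effects was a contrast over 12 libraries. Intervals are at 95%. DESeq2 1.42.0 (the study used an earlier version) was an alternative, as were its size factors, other filters, thresholds and genes, 1 fit of all libraries, batch and replicate terms, and each library left out. RPKM used merged exons of GENCODE version 44 (GRCh38). Procedures were tested on simulated data. Figures were drawn with matplotlib 3.10.9.

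The deviations of same-numbered libraries from their group means correlated at 0.026, 0.050 and 0.028 over genes in the MAPKi experiment and at 0.475, 0.327 and 0.380 in the Gln experiment, where the labels also give shared experimental batches. The main fits of both experiments did not use this pairing, and the replicate block was run as an alternative. In the Gln results its values are given where they change a result.

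The members and gene lists were chosen with earlier results of these data known. Named were all 10 members, the up- or downregulated genes of each other list (the 4 largest changes where more than 4 passed), and the 5 genes most like MITF. TFAP2A, ZEB2, MC1R, SOX10, PAX3, CD44, LURAP1L-AS1 and the further genes called with the replicate block were named after their values were seen. Some genes of the lists are not reported here by name.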

Additional observations from a re-analysis of the deposited data

How the results depend on the processing

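Replicate spread limited the precision for MITF, DCT and PMEL, and low counts that for GPR143, SLC45A2, OCA2 and TRPM1. Among the members' log2 fold changes 349 values under alternatives kept their direction and side of the threshold and 3 kept only the direction. These were MITF with MAPKi in 1 fit of all 12 libraries (0.80, adjusted p = 0.192) and against a log2 fold change of 1 (0.78, adjusted p = 1), and TYR against a log2 fold change of 1 (1.62, adjusted p = 0.0547). None reversed. In all alternatives run, the 7 members of the main contrast differed between the treatments. GPR143, SLC45A2 and TRPM1 entered the contrast under laxer limits on counts and were not called. TRPM1 also entered some fits with 1 library left out and was not called. With 0 reads in the Gln experiment, its difference could not be estimated. With all 12 libraries in 1 fit, 2 members were downregulated with Gln depletion, since MLANA then entered the test. In the same fit TRPM1 was no longer tested with MAPKi and MITF was not called, so that fewer members were upregulated.

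For the other lists together, 13 genes were downregulated with MAPKi and 21 without a fold-change threshold. With Gln depletion 2 were upregulated and 5 downregulated. The numbers were 6 and 15 with all 12 libraries in 1 fit and without a fold-change threshold, 7 and 13 with the replicate block, 6 and 13 with experimental batch as a term, and 1 and 1 at a log2 threshold of 1 and at an adjusted p of 0.01. In experimental batch 2 alone 8 were downregulated. With 1 library left out, 1 to 3 were upregulated and 1 to 6 downregulated, the lowest number of downregulated genes being reached without CTRL replicate 3 and without Gln-depleted replicate 2. The replicate block changed no call of a member at the 1.5-fold threshold. In the MAPKi experiment, where libraries share only a number, it left 7 members upregulated.

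Over all genes, 2569 were upregulated and 2813 downregulated with MAPKi. These became 5723 and 5742 without a fold-change threshold, 1233 and 1498 at a log2 threshold of 1, and 1646 upregulated with all 12 libraries in 1 fit. With Gln depletion 510 and 262 became 1039 and 1053 with all 12 libraries, 1337 and 1006 with the replicate block, 1226 and 905 with the batch term, 803 and 617 in experimental batch 2 alone, 1406 and 1106 without a fold-change threshold, 230 and 68 at a log2 threshold of 1, and 184 and 43 at an adjusted p of 0.01. They ranged over 208 to 573 and 61 to 414 with 1 library left out, the lowest without CTRL replicate 2. Why these counts moved was not tested, beyond what the thresholds and the number of libraries set. At an adjusted p of 0.01, 3654 of the 5810 genes differed between the treatments. Measuring levels by the longest transcript moved 18 of the 40 levels by more than 1 SD and 2 of the 40 places in the order of the members, those of MLANA and GPR143 in Gln-depleted cells.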
